A study of Mus musculus with 2 samples.

Results

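The genes Mir219a-1, Mir219a-2 and Mir338, which encode microRNAs of the oligodendrocyte lineage, were examined in the neural tube of mouse embryos, from which the brain and spinal cord form. They are 3 of the 1973 miRNA genes counted and were taken by their symbols in the mouse gene annotation GENCODE M21, not by their values. The data are small RNA libraries (size range under 30, per the labels) from strain B6NCrl at 12.5 days of embryonic development. The single group has 2 biological replicates with no allele or treatment in the labels. Replicate 1 pooled 120 embryos of both sexes and replicate 2 pooled 88. There is no second age, tissue or genotype, so the values describe levels at 1 stage, before oligodendrocytes mature, and the only test is between the replicate libraries.

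Oligodendrocytes make the myelin sheath of the central nervous system and arise from progenitors of the neural tube. MicroRNAs are short RNAs that lower the output of messenger RNAs carrying a match to their seed, bases 2 to 8 from the 5′ end. miR-219 and miR-338 are known for their rise as progenitors become oligodendrocytes, where they repress genes that hold progenitors in division, such as the growth factor receptor gene Pdgfra and the transcription factor genes Sox6 and Hes5.

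All 3 genes matched the RefSeq miRNA table (build GRCm38.p6, the same assembly as mm10). Mature strands of these genes in that table are shown because they bear on which reads a gene can be given; miR-219a-2-3p is not shown. Each is written 5′ to 3′ with its seed in capitals.
miR-219a-5p, from Mir219a-1 and Mir219a-2: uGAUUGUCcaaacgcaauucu
miR-219a-1-3p, from Mir219a-1: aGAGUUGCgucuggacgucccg
miR-338-3p, from Mir338: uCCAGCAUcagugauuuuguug
miR-338-5p, from Mir338: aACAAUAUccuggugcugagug

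No seed among these 4 strands was the same as another, and no other of the 1679 mature names in the table had any of them. A seed held by 1 name only was the usual case, found for 72.1% of names. miR-219a-5p, the strand of 21 bases that both Mir219a genes encode, occurred in 2 hairpins. That was less usual, since 3.81% of mature names occurred in more than 1 hairpin. The strands miR-219a-1-3p, miR-338-3p and miR-338-5p each occurred in 1 hairpin.

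The hairpins show how far the genes share sequence. The mature strands listed for each are in capitals.
Mir219a-1: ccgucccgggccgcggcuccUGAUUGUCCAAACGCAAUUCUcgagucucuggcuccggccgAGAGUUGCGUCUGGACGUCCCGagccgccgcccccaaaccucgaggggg
Mir219a-2: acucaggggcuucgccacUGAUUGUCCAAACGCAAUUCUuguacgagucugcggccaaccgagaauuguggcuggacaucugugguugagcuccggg
Mir338: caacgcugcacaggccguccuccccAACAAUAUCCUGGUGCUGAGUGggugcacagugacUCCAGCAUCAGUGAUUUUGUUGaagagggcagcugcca

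The longest stretch common to both Mir219a hairpins was 22 bases: all of miR-219a-5p, 1 base before it and 0 bases after it. A read of exactly miR-219a-5p therefore maps to both genes. The authors' files put reads that map to several places in a row of their own and in no gene's count, so such a read is in neither Mir219a value below. A read reaching past the 3′ end of the arm, or lying on the other side of the hairpin, differs between the genes and can be counted. miR-219a-1-3p and the Mir219a-2 hairpin had at most 6 bases in a row in common. A gene count holds both arms, so how much of it came from either arm cannot be told apart. Mir338 had at most 6 bases in a row in common with Mir219a-1 and 5 with Mir219a-2.

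The genes lie on different chromosomes, and coordinates are on mm10 (GENCODE M21). Mir219a-1 is at chr17:34024983-34025092 on the minus strand. It overlaps 88 bases of the single exon of the long non-coding RNA gene Gm26940 and lies 302 bases from Ring1, a Polycomb gene. Mir219a-2 is at chr2:29845631-29845727 on the minus strand, in no other gene of its strand, and 628 bases from Urm1 on the opposite strand. Mir338 is at chr11:120014765-120014862, in the intron between exons 7 and 8 of the 3 protein-coding Aatk transcripts that span it, on the same strand. Aatk encodes a kinase of the nervous system. The tables count miRNA genes, so the levels of Aatk and Gm26940 were not analysed here.

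Replicate 1 had 4802411 reads on the own strand of a miRNA gene and replicate 2 had 4422853. Levels are reads per 1000000 of these (CPM), and 0 reads would still allow 0.625 and 0.678 CPM (3 counts). Genes with 10 or more reads in each library were called detected; there were 371, all 3 examined here among them. miRNA genes of the Hox clusters, which mark position along the body axis, held 36.4% and 34.9% of reads, and 7 of 9 neuronal genes and 2 of 2 neural progenitor genes in the tables were detected. Reads that map to several genes are in no count. For genes that share a mature strand, these values therefore do not give the level of the mature miRNA. Markers of other cell types were present as well: endothelial Mir126a held 2.03% of the reads of replicate 1 and 1.83% of replicate 2, and 7 mesenchyme and smooth muscle genes 1.67% and 1.55%.

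Mir219a-2 was the most abundant of the 3 genes. It had 31648 reads in replicate 1 and 19897 in replicate 2, or 6590 CPM (95% exact binomial interval 6518 to 6663) and 4499 CPM (4437 to 4561). The intervals do not overlap, but they cover counting error only: without molecular identifiers, PCR copies of a molecule count as separate reads. The mean was 5544 ± 1479 CPM (SD, n = 2), the position 31 of all genes and 48.4 times the median of detected genes. It ranked 27 in replicate 1 and 41 in replicate 2, so it was among the better represented miRNA genes of the tissue in each library.

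Mir219a-1, the other source of miR-219a-5p, had 1922 reads in replicate 1 and 1726 in replicate 2. These are 400.2 CPM (interval 382.5 to 418.5) and 390.2 CPM (372.1 to 409.1), which overlap. Its mean was 395.2 ± 7.05 CPM (n = 2), at position 122, with 67.1% of detected genes lower. Its reads per 1000000 were thus nearly the same in both pools.

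Mir338 had the fewest reads, 373 in replicate 1 and 336 in replicate 2. These are 77.7 CPM (interval 70.0 to 86.0) and 76.0 CPM (68.1 to 84.5). The mean of 76.8 ± 1.20 CPM (n = 2) put it at position 211, below the median of detected genes at 0.670 times its level, and far above the limit that a count of 0 allows. No arm of Mir338 occurs in another hairpin of the table, so sharing an annotated mature strand does not lower its count.

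**Figure D1:**
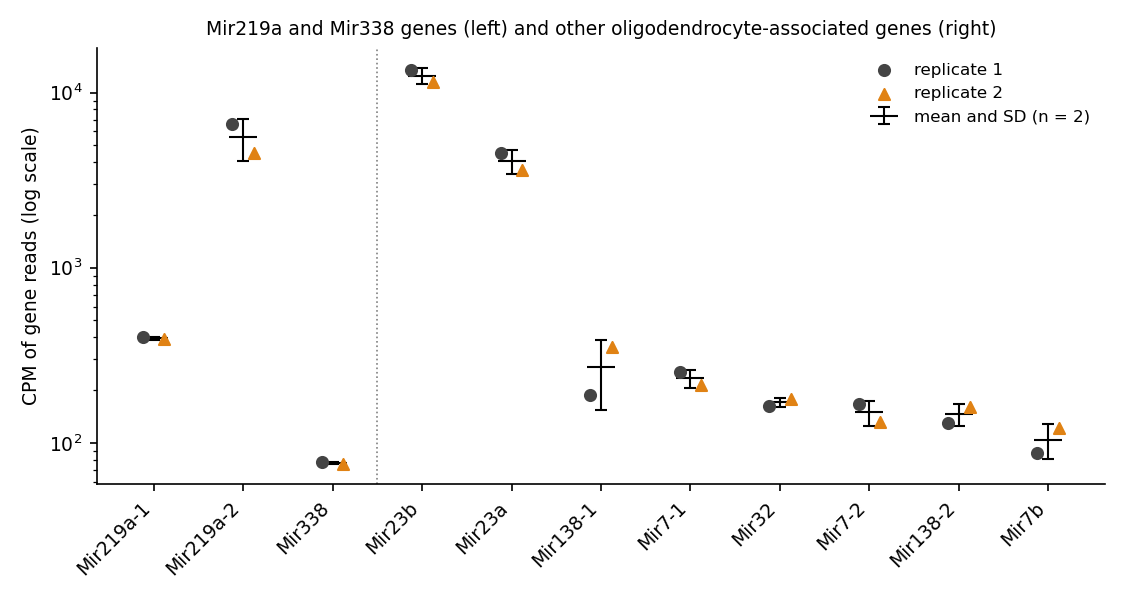
Level of each gene in CPM of gene reads (log axis) in replicate 1 (circles) and replicate 2 (triangles), with the mean and SD of the 2 libraries as a bar; the 3 genes examined are left of the dotted line and the 8 other oligodendrocyte-associated genes right of it. Mir219a-2 lies at 6590 and 4499 CPM, Mir219a-1 at 400.2 and 390.2, and Mir338 at 77.7 and 76.0.

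In both libraries the order was Mir219a-2, Mir219a-1, Mir338. The ratio of reads of Mir219a-2 to Mir219a-1 was 16.5 in replicate 1 and 11.5 in replicate 2, with a mean of 14.0 ± 3.49 (SD, n = 2). Mir219a-2 outnumbered Mir338 84.8 times and 59.2 times, a mean of 72.0 ± 18.1. Mir219a-1 outnumbered Mir338 5.15 times and 5.14 times, a mean of 5.14 ± 0.0113. Each mean ratio lay above 1 by more than its SD, although no exact test of an order in 2 libraries can go below p = 0.5. A small RNA read is a whole short strand, so CPM was not divided by gene length. Per kb of gene the mean ratios were 15.9, 72.8 and 4.58 in the same order. Capture in library preparation can differ between sequences and was not measured, so the ratios hold for reads rather than for molecules.

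Together the 3 genes held 0.707% of gene reads in replicate 1, with an interval of 0.699 to 0.714. They held 0.496% in replicate 2 (0.490 to 0.503), giving a mean of 0.602% ± 0.149. Mir219a-2 made up 93.2% and 90.6% of those reads. Without it, the other genes together held 0.0472%, so the summed level is in effect that of Mir219a-2.

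**Figure D2:**
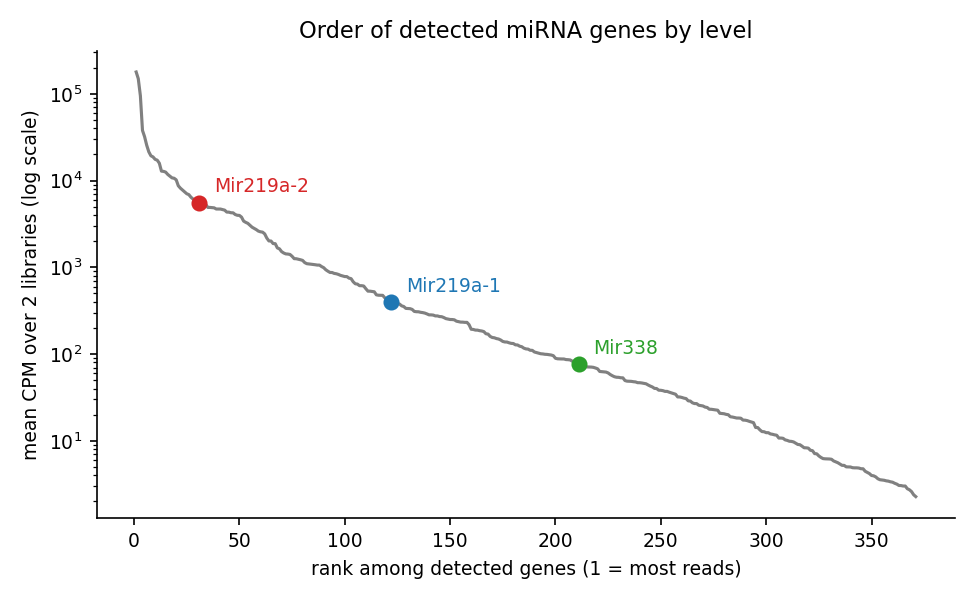
Mean CPM over the 2 libraries (log axis) of the 371 detected miRNA genes, ordered from most to fewest reads; the coloured points are the 3 genes examined. Mir219a-2 is at position 31, Mir219a-1 at 122 and Mir338 at 211.

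The neighbours of each gene in the order of levels did not differ from it beyond the spread between libraries. Mir219a-2 stood between Mir342 (5570 ± 731.1 CPM) and Mir214 (5533 ± 986.9 CPM), and in both cases the sign of the difference changed from one library to the other. Mir219a-1 stood between Mir503 (395.4 ± 55.7 CPM) and Mir101a (395.2 ± 54.7 CPM), and Mir338 between Mir29c (79.7 ± 7.86 CPM) and Mir6236 (73.4 ± 50.5 CPM). By likeness over both libraries (Euclidean distance of log2(CPM + 1)), the nearest detected genes to Mir219a-2 were Mir214 at 0.13, Mir744 at 0.20 and Mir342 at 0.20. Nearest to Mir219a-1 were Mir320 at 0.10, Mir455 at 0.21 and Mir186 at 0.22. Nearest to Mir338 were Mir412 at 0.09, Mir451a, the erythroid miRNA gene, at 0.14, and Mir222 at 0.17. With only 2 libraries, likeness says little beyond a like level.

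To compare the libraries, each gene's counts were given a two-sided exact binomial test against the TMM-scaled totals, adjusted by Benjamini-Hochberg over the 371 detected genes at a threshold of 0.05. It compares the libraries, not conditions, and covers counting error alone. Of all detected genes, 53.1% passed, 26.1% higher and 27.0% lower in replicate 1. Of the 3 genes examined, 1 passed. Mir219a-2 was 1.43-fold higher in replicate 1 (interval 1.40 to 1.45, log2 ratio 0.51, adjusted p at most 4.64e-299). The log2 ratio was 1.53 times the SD of 0.33 that the common coefficient of variation of 16.4% gives for 2 libraries. Passing, with most genes also passing, does not set it apart from replicate error.

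Mir219a-1 and Mir338 did not pass. The ratio of replicate 1 to replicate 2 was 0.998 for Mir219a-1 (interval 0.935 to 1.07, adjusted p = 0.984 by the exact binomial test). For Mir338 it was 0.995 (interval 0.856 to 1.16, adjusted p = 0.991 by the same test), and a difference within that interval was not detectable at this depth. With a 2-fold minimum, 2.70% of detected genes passed and 0 of these 3; without it, by unadjusted p under 0.05, 1 did. Of the detected genes, 62 had a larger absolute log2 ratio than Mir219a-2. Of the 31 genes at least as abundant as Mir219a-2, itself included, only Mir182 (log2 ratio -0.67) and Mir92b (0.66) had one; these were named after their values were seen.

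**Figure D3:**
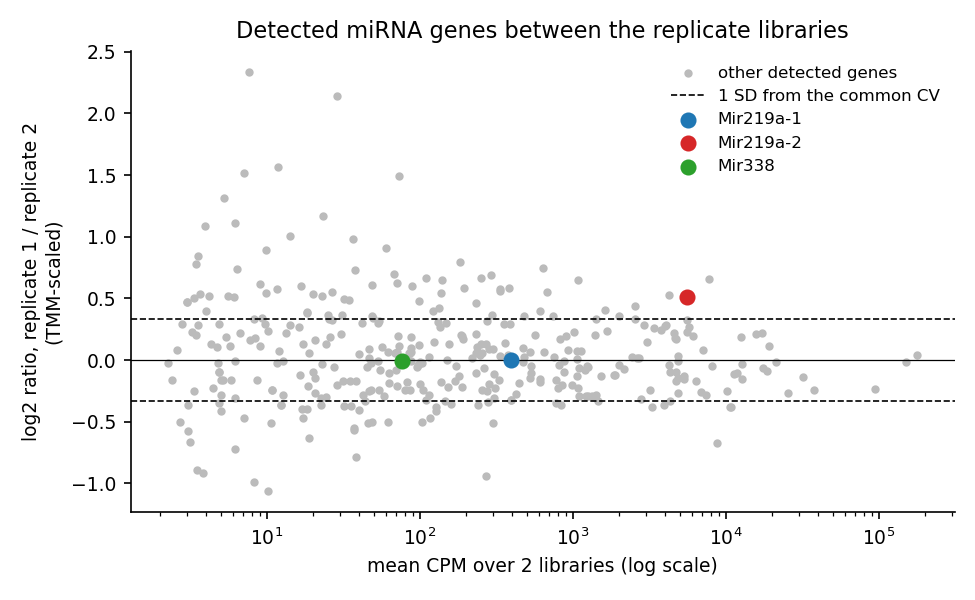
Log2 ratio of replicate 1 to replicate 2 after TMM scaling (vertical axis) against mean CPM (log axis) for the 371 detected genes; dashed lines lie 1 SD (0.33) from 0. Mir219a-2 lies at 0.51, outside the lines, and Mir219a-1 and Mir338 lie at about 0.

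The ratio of Mir219a-2 to Mir219a-1 moved with Mir219a-2, 1.43-fold from replicate 2 to replicate 1 (exact conditional interval 1.33 to 1.53), while that of Mir219a-1 to Mir338 moved 1.00-fold (0.851 to 1.18). These ratios do not depend on library scaling. The pools also differed in marker genes of other cells. The muscle gene Mir206 had 811.1 CPM in replicate 1 and 469.8 in replicate 2. Of the other muscle genes listed, Mir1a-1 had 1 and 0 reads, and Mir133a-1 and Mir133a-2 had 0 in both. A read fitting more than 1 gene is left out of the counts, so these values do not show that the mature miRNAs were absent. Mir133b, which was not listed, had 68 reads in replicate 1 and 41 in replicate 2 (log2 ratio 0.57) without passing. Other unlisted muscle genes went both ways. Mir208b had a log2 ratio of 0.73 and passed, while Mir499 (0.34), Mir208a (-0.51) and Mir1b (-0.16) did not pass. The endothelial gene Mir126a was higher in replicate 1 by less (log2 ratio 0.11, against 0.75 for Mir206). The summed shares of other lists hid members that went opposite ways. Among all detected genes, 26.1% passed as higher in replicate 1 and 27.0% as lower. Of 6 detected mesenchyme and smooth muscle genes, 1 was higher in replicate 1 past the test (Mir214, log2 ratio 0.33) and 2 were lower (Mir143 at -0.13 and Mir199a-2 at -0.50), with a median of -0.06. Of 3 erythroid genes (0.0112% against 0.0102% of reads), 1 was higher, Mir486, and Mir144 had a log2 ratio of -0.47 without passing. Of 3 leukocyte genes (0.0349% against 0.0303%), 1 was higher, Mir223. Of 7 detected neuronal genes, 2 were higher, Mir128-1 at 0.58 and Mir128-2 at 0.65, and 3 lower, Mir137 at -0.32, Mir218-1 at -0.40 and Mir218-2 at -0.34, with a median of -0.04. The summed neuronal share was 0.406% against 0.451%. Of the 9 neuronal genes summed, 4 share a mature strand with another gene. Reads that map to several genes are in no count, so this share is not the level of the mature neuronal miRNAs. The part of these marker differences in the difference of Mir219a-2 was not tested. In such bulk tissue, fewer cells of a type and less RNA per cell cannot be told apart.

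The copies of miR-219a were set beside other pairs of miRNA genes that share a mature strand found in exactly 2 hairpins. In 19 such pairs both genes were detected. The ratio of the higher to the lower gene ranged from 1.39 to 69.4 with a median of 2.95, and Mir219a-2 to Mir219a-1, at 14.0, was the third highest after Mir181b-2 to Mir181b-1 (69.4 ± 4.65) and Mir196a-2 to Mir196a-1 (40.6 ± 7.14). The shift of the ratio between libraries was the second largest of the 19, 1.43-fold against a median of 1.21-fold. The largest, 1.52-fold, was that of Mir138-1 to Mir138-2, which are also oligodendrocyte-associated. These are ratios of locus-specific reads, since a read lying wholly within the shared strand is counted for neither copy. Some genes stand in more than 1 pair.

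**Figure D4:**
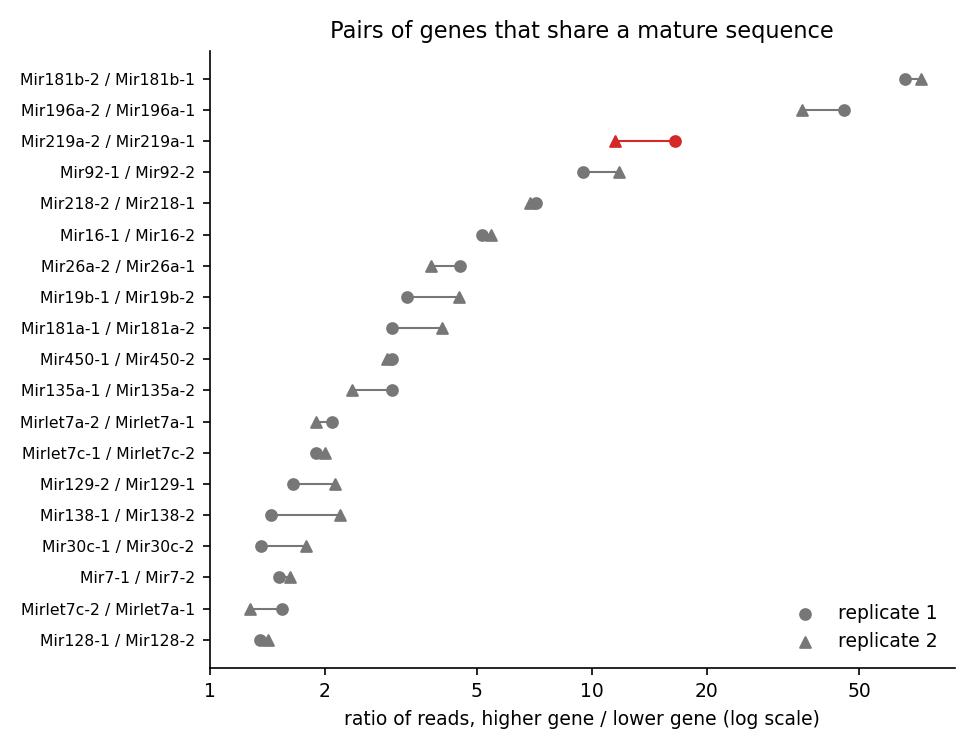
Ratio of reads between the genes of each of 19 pairs that share a mature strand (log axis), in replicate 1 (circles) and replicate 2 (triangles); the Mir219a pair is in red. It lies below the Mir181b and Mir196a pairs, at 16.5 and 11.5.

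Of other miRNA genes associated with oligodendrocytes, 8 were listed and 8 detected. Their median was 201.6 CPM, against 114.7 over all detected genes. Of the 8, 4 share a mature strand with another gene, and reads that map to both copies are not in these values. Between the libraries 4 were higher and 4 lower in replicate 1 by the same test, against 53.1% passing among all detected genes, and none was 2-fold apart. Their median log2 ratio was 0.01, against 0.00 over all detected genes.

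Mir23b and Mir23a, of which Mir23a is known to repress the lamin B1 gene and to favour myelination, had 12502 ± 1377 and 4059 ± 638.0 CPM (n = 2). Many cell types express them. Mir138-1 and Mir138-2, copies of a miRNA induced in early differentiation, had 269.5 ± 114.9 and 145.2 ± 21.02 CPM. Mir138-1 was lower in replicate 1, with 904 reads against 1551 (log2 ratio -0.94), opposite in direction to Mir219a-2. Mir7-1, Mir7-2 and Mir7b, of a family that favours progenitor production, had 233.3 ± 28.7, 149.1 ± 24.7 and 104.1 ± 23.5 CPM. Mir32, linked to myelin lipid metabolism, had 170.0 ± 10.7 CPM. Thus Mir338 had fewer reads than each of these 8 genes in both libraries. Mir219a-1 had more than every one of them but the Mir23 genes, and Mir219a-2 more than all but Mir23b. Mir138-1, Mir138-2, Mir7-1 and Mir7-2, like both Mir219a genes, share a mature strand with another gene. Their counts leave out reads that map to both copies, so this order is one of counted reads and not of mature miRNAs.

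The Mir17 cluster, which promotes the division of progenitors, held 4.20% of reads in replicate 1 and 4.85% in replicate 2, more than the 3 oligodendrocyte-lineage genes in each. Its leading members were Mir17 (25531 ± 2885 CPM) and Mir20a (10738 ± 1772 CPM), both above Mir219a-2. Mir17 and Mir20a were not found to share a mature strand with another gene, whereas both Mir219a genes do. The Mir219a counts leave out reads that map to both copies. These comparisons with the cluster are thus of counted reads and not of mature miRNAs. Of its 6 members, 4 were lower and 1 higher in replicate 1 past the test, against 27.0% lower and 26.1% higher among all detected genes. The median log2 ratio of the cluster was -0.26, against 0.00 over all detected genes and 0.51 for Mir219a-2. Among neuronal genes, Mir137 had 2809 ± 379.0 CPM and Mir153 807.1 ± 1.17, between Mir219a-2 and Mir219a-1 in counted reads. Of the neural progenitor genes, 2 of 3 listed matched, Mir9-3 with 283.1 ± 21.1 CPM and Mir9-2 with 3.95 ± 2.07, and the other was not analysed here. Mir9-3 and Mir9-2 each share a mature strand with other genes. Reads that map to several of these are in no count, so the values do not give the level of the mature miRNA.

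Each of the 3 genes has an annotated miRNA gene on the opposite strand, Mir219c at Mir219a-1, Mir219b at Mir219a-2 and Mir3065 at Mir338. These are not among the genes counted, but each lies wholly within the member's place, and its RefSeq hairpin is the reverse complement of part of the member's. Their strands are shown where they face a member's mature strand, with seeds in capitals.
miR-219c-3p, facing 20 bases of miR-219a-5p: cGAGAAUUgcguuuggacaauc
miR-219c-5p, facing 20 bases of miR-219a-1-3p: gGACGUCCagacgcaacucucg
miR-219b-3p, facing 21 bases of miR-219a-5p: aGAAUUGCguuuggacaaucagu
miR-3065-5p, facing 21 bases of miR-338-3p: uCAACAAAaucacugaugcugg

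Counted reads on the opposite strand were few. At Mir219a-1 there were 6 in replicate 1 and 7 in replicate 2, or 0.311% (95% exact binomial interval 0.114 to 0.676) and 0.404% (0.163 to 0.830) of the reads of both strands there. At Mir219a-2 there were 1 and 3, and at Mir338 0 and 1. Over all miRNA genes, opposite-strand reads were 1.72% and 1.48% of the reads of both strands, and the values at all 3 places lay below the overall share of their library. For Mir338 in replicate 2 the interval, 0.00751 to 1.64%, holds the overall share, so that difference was not detectable at this depth. The overall share pools genes that differ widely and is not that of a typical gene. Mir299b had 4254 and 3767 opposite-strand reads, while Mir503 and Mir101a, next to Mir219a-1 in level, had 0 in both libraries. Lying below the overall share therefore does not make the 3 places low for single genes. Nearly all counted reads at these places came from the strand of Mir219a-1, Mir219a-2 and Mir338. An opposite-strand read lying wholly within the stretch common to both Mir219a hairpins maps to both places and is in no count.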

How the data were processed

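Per the files deposited by the authors, each library has whole-number read counts per miRNA gene, not normalized, on mm10 with genome annotation M4; the aligner and the counter are not stated in these sources. Of the strand columns, that with more gene reads was used (own strand). Rows that name no gene were left out: unmapped reads were 27.3% and 20.0% of all reads in replicates 1 and 2, reads mapping to several places 27.0% and 28.6%, and reads on no feature 8.04% and 4.45%. Of 1973 identifiers, 1894 matched GENCODE M21 without version.

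CPM is the count over the own-strand total, and the likeness distance used log2(CPM + 1); log2 ratios between libraries have no pseudocount for genes with reads in both. TMM factors and the common coefficient of variation came from edgeR 4.0.16 (R 4.3.3, no groups); its quasi-likelihood test was not applied, since there is 1 group. Intervals are exact binomial (Clopper-Pearson, 95%), and p-values below 1e-300 were set to it. Alternatives were library totals, DESeq2 1.42.0 size factors, other minimum counts, denominators and strands, gene length, a pseudocount and leaving out each library. The tests were checked on simulated counts with counting error only, so that check does not cover variation between replicates. Python 3.11.15, numpy 2.4.6, pandas 2.3.3, scipy 1.17.1 and matplotlib 3.10.9 were used. Genes named are the 3 members, genes overlapping or within 10 kb where they bear on a member's place, the 3 nearest in level to each, the oligodendrocyte-associated list and leading genes of other lists; other names were chosen after their values were seen. Members, lists and rules were chosen with earlier results of these data known. Listed Mir7a-1 and Mir7a-2 matched Mir7-1 and Mir7-2 by synonym.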

Additional observations from a re-analysis of the deposited data

Results flagged for a closer look

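Reads on the strand opposite to Mir219a-1, which are outside the main measurement, were above the 3 counts that a count of 0 allows: 6 in replicate 1 and 7 in replicate 2. The 3 counts are a limit for a count of 0 and not a background of opposite-strand reads. Mir219c is annotated on that strand, but whether these reads came from it was not tested.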

How the results depend on the processing

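Of 64 values recomputed, 48 kept their direction and their side of the threshold, or stayed within 1 SD (counts of genes within 1.5 times). With multiply mapping reads added to the denominator, Mir219a-2 had 3315 CPM, Mir219a-1 237.6, Mir338 46.2, and the 3 together 0.360% of reads. With all reads of the file they had 2297, 167.0 and 32.5 CPM. These denominators cannot change the order within a library. Without Mir219a-2, an alternative chosen after seeing the data, the share was 0.0472%. The ratio of Mir219a-1 to Mir338 was 4.58 per kb and 5.09 with a pseudocount of 1 CPM. Leaving out each replicate gave 4499 to 6590 CPM for Mir219a-2, 390.2 to 400.2 for Mir219a-1, 76.0 to 77.7 for Mir338, ratios of 11.5 to 16.5, 59.2 to 84.8 and 5.14 to 5.15, and a share of 0.496% to 0.707%. The log2 ratio of Mir219a-1 between libraries turned from -0.0026 to 0.0364 with library totals (adjusted p = 0.564 by the exact binomial test) and 0.0386 with at least 100 reads (0.484), and that of Mir338 from -0.0070 to 0.0319 (0.852) and 0.0341 (0.812); neither passed under any alternative. That of Mir219a-2 ranged from 0.48 to 0.55 and passed under each. Genes passing with a 2-fold minimum numbered 2 with at least 100 reads in both libraries, against 10, and genes tested 736 with at least 1 read in either, against 371. Higher calls in replicate 1 were 111 against 82 lower with library totals, and 97 against 100 with TMM. No paired analysis was possible because there is 1 group. A test between libraries needs both, so none was made with a replicate left out.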
